A study of Mus musculus with 37 samples.

Results

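Potassium channels set the resting potential of astrocytes and carry the potassium that these cells take up around active neurons. The inward rectifiers Kcnj10 (Kir4.1) and Kcnj16 (Kir5.1) are the best known of them. The genes described here are the other potassium channel genes of cortical astrocytes, defined as every protein-coding gene whose symbol begins with Kcn, without Kcnj10, Kcnj16 and the Kcnip genes. Of 94 protein-coding Kcn genes among the 21975 genes measured, 6 were left out by this definition and 88 were kept. They cover pore-forming subunits of the two-pore leak, inward rectifier, voltage-gated and calcium- or sodium-activated families, subunits that are silent by themselves, and auxiliary subunits that change how a pore opens.

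RNA sequencing had been done on ACSA-2-selected astrocytes from both sides of the cortex of male wild-type mice, 4 months after severe controlled cortical impact (CCI) on the right side or after sham surgery. The paper gives the strain as the outbred stock CD1, and the labels as CD31. Injured mice were divided by EEG into those with post-traumatic epilepsy (PTE+) and those without (PTE−), and sham mice had a craniectomy and the same electrodes. The ipsilateral cortex was covered by 5 sham, 10 PTE− and 4 PTE+ libraries and the contralateral cortex by 5, 9 and 4, from 20 mice, 17 of which gave both sides. Values were TPM (transcripts scaled to a fixed library total), which are scaled for transcript length but keep no sequencing depth, so the depth behind each value is unknown.

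The cells carried the markers of astrocytes. The summed TPM of 8 astrocyte markers lay between 13609 and 19135, against 42.7 to 724 for 10 neuronal, 120 to 653 for 9 microglial, 520 to 4456 for 9 oligodendrocyte, 262 to 1971 for 7 endothelial and 781 to 4768 for 8 mural markers. It was 20.5 to 1140 for 7 ependymal and choroid plexus, 21.9 to 216 for 5 fibroblast and 8.47 to 59.5 for 5 oligodendrocyte precursor markers. RNA of other cells was thus present, and the oligodendrocyte marker Mbp, at a mean of 1151 TPM, exceeded the astrocyte marker Aqp4 at 647 TPM. Aldoc held the largest part of the astrocyte sum, with a mean of 10085 TPM beside 2141 TPM for the next marker, Slc1a3. One ipsilateral library, PTE− 9_14, stood apart. It had 10727 genes above 0, where each of the other libraries had 15599 to 18534, and 72 of the 88 potassium channel genes were listed at 0 in it, against 6 to 24 elsewhere. Its mural sum was 4768, the highest of all, although 3 of the mural markers (Acta2, Tagln and Myh11) were at 0. Vtn alone made up 4285 TPM of that sum. Results that rest on this library are given with and without it.

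Two-pore leak channels and calcium-activated channels made up most of the potassium channel message outside Kir4.1 and Kir5.1. Of the 88 genes, 2 had a mean above 100 TPM over the 37 libraries, 13 above 10, 24 above 5 and 48 above 1, while 40 stayed at or under 1 and Kcnk16 was listed at 0 in every library. Kcnk1, which encodes the leak channel TWIK-1, was first at 391 ± 148 TPM (SD, n = 37). Kcnn2, which encodes the small-conductance calcium-activated channel SK2, followed at 195 ± 42.5 TPM. Both of these means were above those of the 2 Kir genes that had been left out, Kcnj10 at 103 ± 35.3 TPM and Kcnj16 at 67.6 ± 24.1 TPM. Kcnk1 alone held a median of 39.2% of the summed TPM of the 88 genes, with a range of 9.96% to 60.7% over libraries, and Kcnk1 and Kcnn2 together 58.9%.

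**Figure D1:**
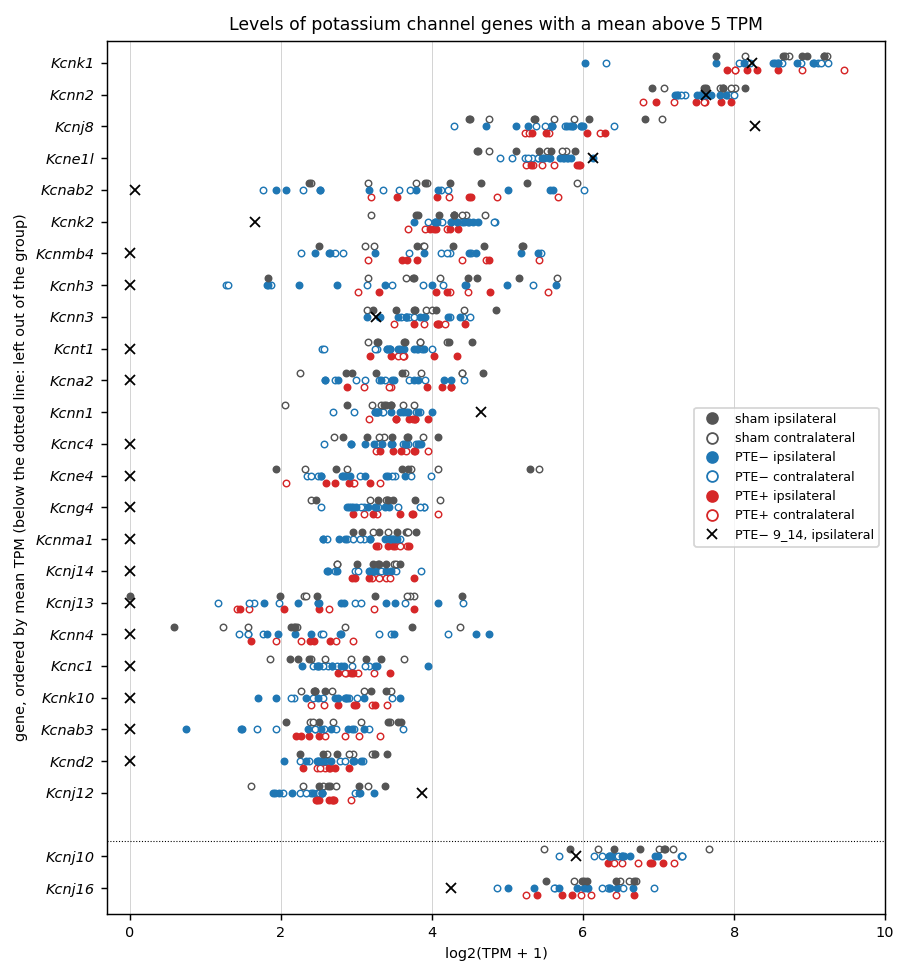
Level of each potassium channel gene with a mean above 5 TPM, as log2(TPM + 1) on the horizontal axis, with 1 point per library, filled for ipsilateral and open for contralateral, and Kcnj10 and Kcnj16 below the dotted line. Kcnk1 and Kcnn2 lie to the right of the other genes in nearly every library, and the crosses of the ipsilateral PTE− 9_14 library lie at 0 for 15 of the 24 genes.

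The order of the levels was firm only at its top. Without the 9_14 library, Kcnk1 was above Kcnn2 in 33 of 36 libraries and Kcnn2 was above Kcnj8, the next gene, in 36 of 36. Kcne1l was above Kcnab2 in 31 of 36. For the other 20 of the 23 neighbouring pairs among the 24 highest genes, the mean difference in log2(TPM + 1) was smaller than its SD over libraries. Kcnj8 and Kcne1l were such a pair, with Kcnj8 higher in 20 of 36.

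By group, the mean log2(TPM + 1) of Kcnk1 was 8.69 in ipsilateral sham, 8.22 in PTE− and 8.24 in PTE+, and contralaterally 8.79, 8.52 and 8.59. That of Kcnn2 was 7.63, 7.58 and 7.56 ipsilaterally and 7.74, 7.61 and 7.31 contralaterally. Kcnj8 stood at 5.62, 5.84 and 5.80 and at 5.56, 5.59 and 5.57, and Kcne1l at 5.32, 5.74 and 5.78 and at 5.28, 5.34 and 5.41, in the same order. Kcnk1 and then Kcnn2 stood first in each of the 6 group means. Without 9_14 the ipsilateral PTE− means were 8.22 for Kcnk1, 7.57 for Kcnn2, 5.57 for Kcnj8 and 5.70 for Kcne1l, so that the order of the last pair turned. The SD within a group reached 0.93 for Kcnk1.

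The two-pore leak channels (14 genes), which conduct at rest, held 44.1% of the summed mean TPM, with 8 genes above 1 TPM and 3 above 5. Kcnk1 lies on chromosome 8 at 125995170 to 126030685 (GRCm38, plus strand). The other 2 were Kcnk2 and Kcnk10, which encode the mechanically and lipid gated channels TREK-1 and TREK-2, at means of 17.4 and 5.94 TPM. Kcnk2 had an SD of 0.33 in log2(TPM + 1) and ranged from 8.17 to 27.5 TPM outside the 9_14 library.

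The calcium- and sodium-activated channels (8 genes, with Kcnu1 counted by gene family and not by what opens it) held 25.5%, with 6 genes above 5 TPM. Besides Kcnn2 these were its relatives Kcnn3 (SK3, mean 14.1 TPM), Kcnn1 (SK1, 10.5 TPM) and Kcnn4 (the intermediate-conductance channel, 6.19 TPM), the sodium-activated Kcnt1 (Slack, 11.3 TPM), and Kcnma1 (the pore of the large-conductance BK channel, 8.74 TPM). The SD of Kcnn2 over libraries was 0.34 on the log2 scale without 9_14, against 0.96 for Kcnn4.

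Among the inward rectifiers (13 genes, 9.02%), Kcnj8, the pore subunit Kir6.1 of a channel gated by ATP, had a mean of 59.0 TPM, or 52.0 TPM without 9_14. Its value in that library was 310 TPM and it lay between 18.6 and 131 TPM in all others. Kcnj14, Kcnj13 and Kcnj12, like Kcnk10, Kcnn4 and Kcnc1 outside the rule for naming genes, followed at 8.16, 6.53 and 5.30 TPM. Kcnj8 has as its neighbour, 16247 bases away on chromosome 6, Abcc9, the gene of the sulfonylurea receptor that joins Kir6.1, which had a mean of 6.93 TPM.

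The auxiliary subunits (13 genes, 10.6%) were led by Kcne1l at 45.5 ± 11.6 TPM (SD, n = 37). Kcne1l, also called Kcne5, is a small membrane protein that dampens the current of voltage-gated channels such as Kcnq1, and its gene lies on the X chromosome at 142304752 to 142306294 (GRCm38, minus strand). Kcnab2 (the beta subunit of Kv1 channels) had a mean of 18.4 TPM, Kcnmb4 (the beta-4 subunit of BK) 17.1, Kcne4 9.21 and Kcnab3 (another Kv1 beta subunit) 5.50 TPM. Kcnq1, whose channel is among those that Kcne1l dampens, was at 0.945 TPM.

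The voltage-gated alpha subunits were the largest family (30 genes) but held only 8.90%, with 5 genes above 5 TPM. These were Kcnh3 (Kv12.2, mean 16.3 TPM), Kcna2 (Kv1.2, 11.3 TPM), Kcnc4 (Kv3.4, 10.03 TPM), Kcnc1 (Kv3.1, 6.19 TPM) and Kcnd2 (Kv4.2, the pore of the A-type current, 5.46 TPM). Of the silent subunits (10 genes, 1.91%), Kcng4 alone passed 5 TPM, at 9.02 TPM.

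Kcnh3, Kcnab2 and Kcnmb4 were among the genes that varied most between libraries, and they did so together with neuronal markers. The SD over 36 libraries, on the log2(TPM + 1) scale, was 1.23 for Kcnh3, 1.17 for Kcnab2 and 0.93 for Kcnmb4, against 0.30 to 0.45 for 14 of the 24 genes above 5 TPM. Kcnn4 and Kcnj13 also varied widely, from 0.5 to 25.9 TPM and from 0 to 20.3 TPM over the 17 mice with both sides. Their relations to the marker sums are not given here. For each hemisphere, the 24 genes above 5 TPM were correlated with the summed TPM, on a log2 scale, of 9 marker lists, 216 relations in all, with Benjamini-Hochberg adjustment over them. An adjusted permutation p under 0.05 by both r and rho was reached by 7 relations contralaterally and by 22 ipsilaterally without 9_14. Of these, 5 were shared by both sets. Not all of them are described below, and the share of all genes that would pass is not given here. In the contralateral cortex (n = 18), Kcnh3 followed the neuronal sum with Pearson's r = 0.959 and Spearman's rho = 0.946, and Kcnmb4 with r = 0.964 and rho = 0.948. Their permutation p-values lay between 1e-05, the smallest that 100000 permutations can give, and 2e-05, and the adjusted ones were 0.00054 for r and 0.00108 for rho. Kcnab2 (r = 0.907, rho = 0.922) and Kcnab3 (r = 0.923, rho = 0.895) gave the same adjusted permutation p-values.

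In the ipsilateral cortex without 9_14 (n = 18) the values of r against the neuronal sum were 0.951 for Kcnh3, 0.941 for Kcnmb4, 0.954 for Kcnab2 and 0.816 for Kcnab3, with adjusted permutation p = 0.000432 for each, and rho was 0.920, 0.911, 0.963 and 0.808. Permutation p for rho was at most 9e-05. Leaving out the 2 libraries farthest from the median neuronal sum left r at 0.743 or above for these 4 genes in both hemispheres. The mouse names begin with 8 or 9, which the labels do not explain. Within each set of names r was at least 0.777 for Kcnh3, Kcnmb4 and Kcnab2, while for ipsilateral Kcnab3 it was 0.380 over the 7 libraries of prefix 8 and 0.830 over the 11 of prefix 9. These genes are known from neurons as well as from glia, and what part neuronal RNA had in their values was not tested. In bulk RNA, fewer cells of a type and less RNA per cell cannot be told apart.

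Kcnj8 and Kcne4 moved with the mural sum. This sum of TPM was mostly Vtn, with a mean of 1286 TPM beside 118 TPM for the next marker, Higd1b, so the relations below rest largely on that gene. Contralateral r against the mural sum was 0.869 for Kcnj8 (rho = 0.820) and 0.823 for Kcne4 (rho = 0.828), with adjusted permutation p of 0.000864 and 0.0036 for Kcnj8 and 0.00108 and 0.00216 for Kcne4, the first for r and the second for rho. Leaving out the 2 farthest libraries gave r = 0.782 and 0.719, and within the prefixes r was 0.743 or above for both. Ipsilaterally without 9_14, r was 0.864 for Kcnj8 (rho = 0.864, adjusted permutation p = 0.000432 and 0.00054). The ipsilateral r of Kcne4 was 0.57 without 9_14 and −0.18 with it, and neither passed the adjustment. In sham mouse 9_11, which had mural sums of 2557 and 2687, Kcne4 was at 38.4 and 41.6 TPM, above the 2.82 to 15.9 TPM of all other libraries outside 9_14. A similar mural sum of 2528 in contralateral PTE− 8_13 went with Kcne4 at 14.8 TPM. The part of mural RNA in these values was not tested.

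**Figure D2:**
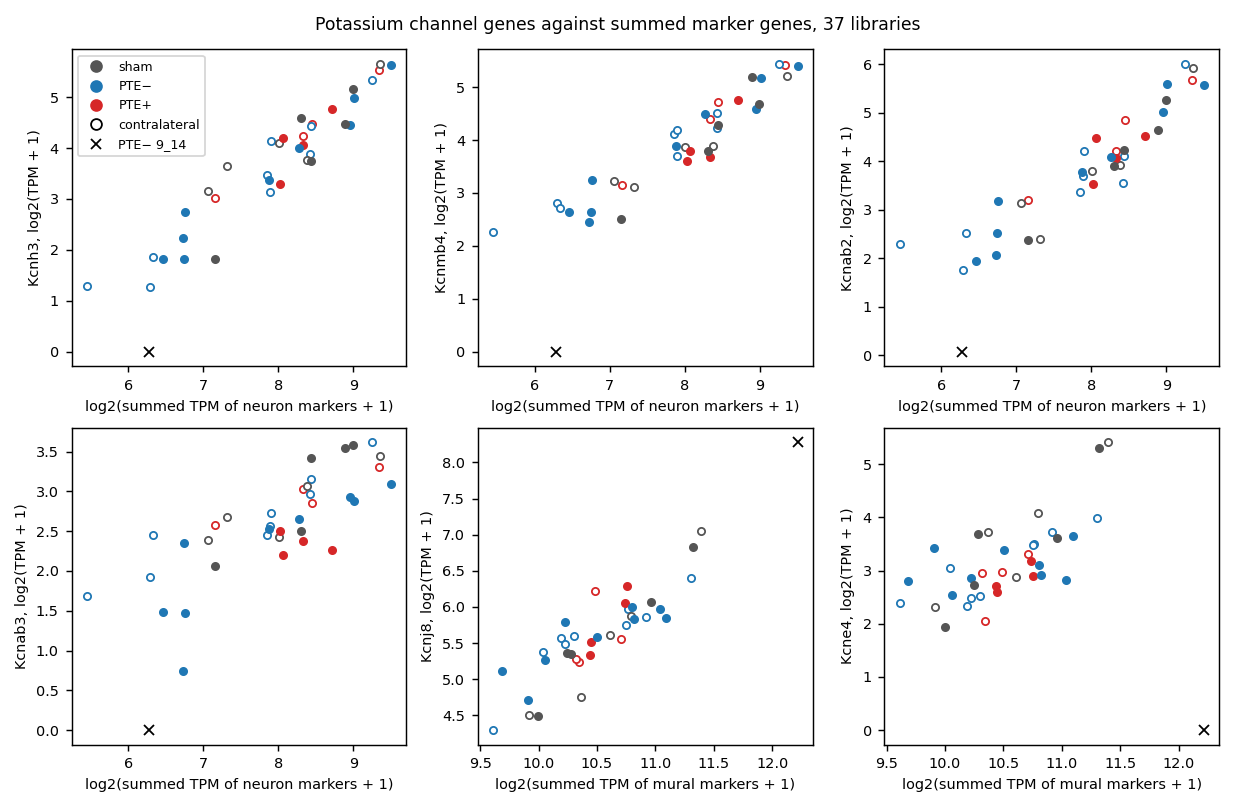
Level of 6 potassium channel genes (vertical axis, log2(TPM + 1)) against the summed TPM of neuronal or mural markers on a log2 scale (horizontal axis), with 1 point per library, filled for ipsilateral and open for contralateral. Kcnh3, Kcnmb4, Kcnab2 and Kcnab3 rise with the neuronal sum and Kcnj8 with the mural sum, and the PTE− 9_14 library is the cross.

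For Kcnk1 the largest absolute r with any of the 9 marker sums was −0.443, for Kcne1l it was 0.507 and for Kcnn2 −0.655, over the contralateral libraries and the ipsilateral ones without 9_14, and in these sets of libraries no relation of these 3 genes passed the adjusted permutation threshold.

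Some genes had levels that were shared by both sides of a mouse. Over the 17 mice with both hemispheres, the ipsilateral and contralateral log2(TPM + 1) of Kcnk1 correlated with r = 0.941 (permutation p = 1e-05, adjusted over 24 genes 0.00024) and rho = 0.801 (permutation p = 0.00016, adjusted 0.00192). Without the 2 mice farthest from the median r was 0.809. Kcnk10 behaved alike, with r = 0.842 (adjusted permutation p = 0.00048), rho = 0.850 (adjusted permutation p = 0.00144) and r = 0.748 without the 2 farthest mice. In all, 6 of the 24 genes passed the adjusted threshold by both measures, and the median r was 0.527. The share of all genes that would pass is not given here. By another measure, same-mouse libraries were alike over genes at large. Their deviations from the group means correlated over 10235 genes with a median of 0.412, and above 0.1 in 16 of 17 mice. Likeness of both sides is therefore not shown to be particular to potassium channel genes. Kcnn2 was one of them at r = 0.712 (rho = 0.703, adjusted permutation p = 0.0115 and 0.0145), but its r fell to 0.424 without the 2 farthest mice. At the other end r was 0.158 for Kcnd2 (permutation p = 0.541) and rho 0.0441 (permutation p = 0.867).

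The range of Kcnk1 was set at its lower end by 1 animal. In PTE− mouse 9_20 it was at 63.9 TPM ipsilaterally and 78.3 TPM contralaterally, while every other library lay between 216 and 698 TPM. The same mouse was inside the range of the others for Kcnn2, at 237 and 254 TPM.

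**Figure D3:**
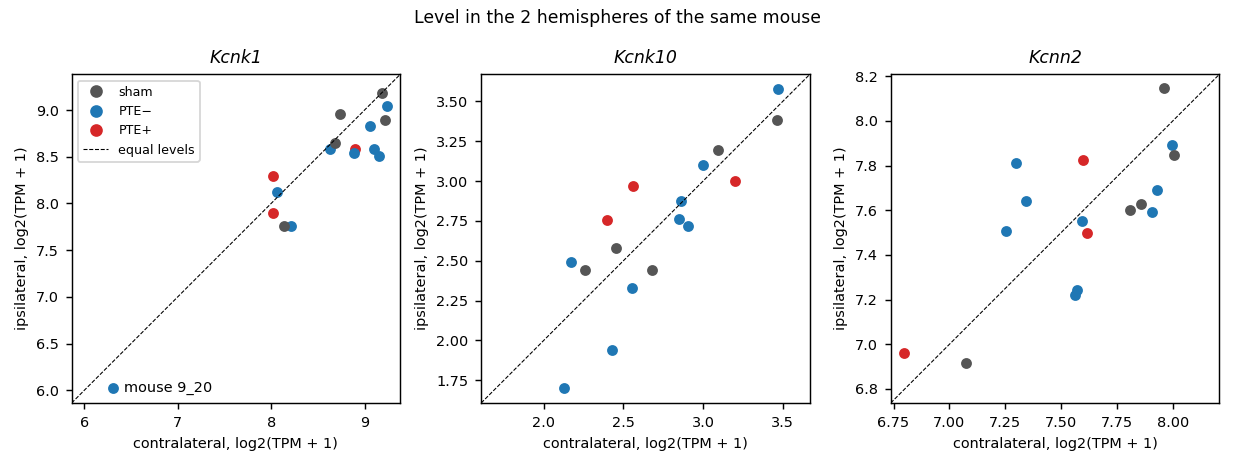
Level in the ipsilateral cortex against that in the contralateral cortex of the same mouse, both as log2(TPM + 1), for Kcnk1, Kcnk10 and Kcnn2, with 1 point per mouse (17 mice) and the dashed line at equal levels. Mouse 9_20 is the lowest point for Kcnk1 on both axes.

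The first comparison asked which genes differ between injured and sham astrocytes of the ipsilateral cortex. Groups were compared on log2(TPM + 1) with limma, over all genes whose group mean exceeded 5 TPM in 1 or more groups. The difference on this scale understates the change of low genes. A gene was called at an unadjusted p under 0.05 and a difference of at least 1.2-fold, the limits that the study had used. Of the 88 genes, 25 were tested and 2 were called, which is 8.0% of them, while 1.62% of all 10434 genes tested were called. Kcne1l was higher and Kcnab3 was lower after CCI. The mean of Kcnab3 exceeded 5 TPM only in sham, so it entered the test through the group where it was higher. At a limit of 1 TPM, which both of its group means passed, it was called as well (limma p = 0.0403). No gene of the transcriptome passed an adjusted p of 0.05 in this comparison with limma, and 195 had an unadjusted p under 0.05. Without 9_14 these counts were 2 and 457.

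Kcne1l was at 46.8, 23.2, 41.6, 58.2 and 33.6 TPM in sham mice 8_15, 8_16, 9_9, 9_10 and 9_11. In the 10 PTE− libraries it ranged from 42.8 to 69.3 with a median of 51.8 TPM, and in the PTE+ mice 8_10, 9_17, 9_18 and 9_19 it was at 60.4, 38.7, 59.4 and 61.2 TPM. The groups overlapped, since 3 sham libraries were above at least 1 injured one, but 13 of the 14 injured libraries were above the sham median. The means were 53.7 ± 9.57 TPM (SD, n = 14) after CCI and 40.7 ± 13.2 TPM (SD, n = 5) in sham. The difference was 0.43 (SE 0.17) in log2(TPM + 1), with limma p = 0.0188, an adjusted p of 1.0 and an exact permutation p of 0.0193 over 11628 splits. It was 0.67 among the mice of prefix 8 (5 CCI, 2 sham) and 0.28 among those of prefix 9 (9 and 3), and 0.40 without 9_14. The call was lost without sham mouse 8_16 (0.25, limma p = 0.125) or sham mouse 9_11 (0.38, limma p = 0.0535).

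Kcnab3 was at 9.66, 10.7, 11.03, 4.69 and 3.18 TPM in the same 5 sham mice. It ranged from 0 to 7.55 with a median of 4.46 TPM in PTE− and stood at 3.82, 4.68, 3.59 and 4.19 TPM in the PTE+ libraries. All 14 injured libraries were below the sham median, and 2 of the 5 sham libraries fell among them. The difference was −0.92 (SE 0.43) in log2(TPM + 1) with limma p = 0.0433, adjusted p = 1.0 and exact permutation p = 0.0484. It was −0.78 in prefix 8 and −0.94 in prefix 9. Without 9_14, which held the 0, it was −0.75 with limma p = 0.0353. The call was lost at a pseudocount of 0.1 (−1.30, limma p = 0.103). It was also lost when any 1 of 6 libraries was left out, PTE− 9_12, 9_16 and 9_20 and sham 8_15, 8_16 and 9_9, with differences of −0.78 to −0.87 and limma p of 0.0597 to 0.114. The neuronal marker sum, which Kcnab3 followed, was 141 to 507 TPM in the sham libraries (median 346) and 76.6 to 724 TPM in the injured ones (median 263). The oligodendrocyte sum was 520 to 4456 (median 3078) and 774 to 2312 (median 1351). Their part in the difference was not tested.

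The median difference of the 25 genes tested was −0.28, beside −0.01 over all genes tested, and 6 of the 25 were positive, beside 47.1% of all genes. Without the 9_14 library the median was −0.08 over 26 genes tested, beside 0.03 over all genes, 10 of the 26 were positive, beside 57.6% of all genes, and again 2 were called where 3.83% of 10424 genes were. Of the two-pore leak channels, Kcnk1 differed by −0.46 (SE 0.33, exact permutation p = 0.22) and Kcnk2 by −0.001 (SE 0.33), and neither was called. Without 9_14 these differences were −0.46 and 0.18. With the limit on levels at 1 TPM, 52 genes were tested and 5 called, where 2.02% of 13494 genes were called. The 3 added, outside the rule for naming genes, were Kcnk13 (−0.85, SE 0.28), Kcns3 (−0.63, SE 0.22) and Kcnu1 (−0.72, SE 0.28), with mean levels of 2.45, 0.894 and 1.49 TPM. All 3 were listed at 0 in 9_14, and without it the differences were −0.73, −0.57 and −0.64 (exact permutation p = 0.00373, 0.00852 and 0.0181). With all libraries, the means of Kcns3 and Kcnu1 exceeded 1 TPM only in sham, where they were higher. Both were also called without a limit on levels.

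**Figure D4:**
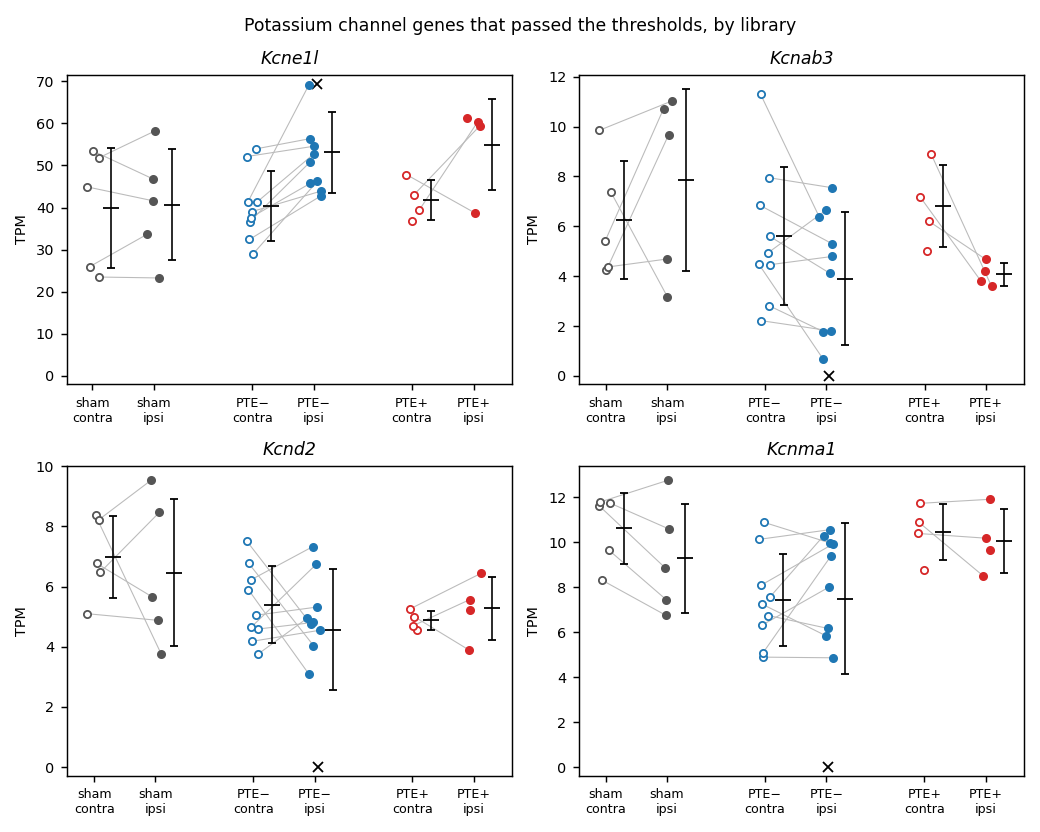
TPM of the 4 genes called in any comparison, by group and hemisphere, with 1 point per library, open for contralateral and filled for ipsilateral, grey lines joining both sides of a mouse, a cross for PTE− 9_14, and bars showing the mean ± SD. Kcne1l rises from contralateral to ipsilateral in 11 of 12 injured mice and Kcnab3 falls in 10 of 12.

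Each injured mouse also had an uninjured side, so the 12 mice with both were compared with themselves. Of 24 genes tested 2 were called, again Kcne1l and Kcnab3, or 8.33%, beside 4.51% of 10350 genes. This comparison shares the ipsilateral libraries with the one above, so the calls are not separate evidence. The pair of genes stayed above an adjusted p of 0.05, as did every potassium channel gene in every comparison, while 22 genes of the transcriptome passed it here.

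Kcne1l was higher on the injured side in 11 of 12 mice. In the PTE− mice 8_9, 8_11, 8_13, 8_14, 9_12, 9_13, 9_15, 9_16 and 9_20 it went from 54.0 to 56.4, 28.9 to 46.2, 36.7 to 50.9, 41.2 to 52.7, 32.4 to 42.8, 39.0 to 43.9, 52.1 to 54.6, 37.6 to 45.8 and 41.3 to 69.1 TPM. In the PTE+ mice 8_10, 9_17 and 9_18 it went from 39.3 to 60.4, 47.8 to 38.7 and 43.0 to 59.4 TPM, and 9_17 was the exception. The mean difference was 0.33 (SE 0.08) in log2(TPM + 1), with limma p = 0.00112, adjusted p = 0.154 and an exact permutation p of 0.00488 over 4096 sign changes. It was 0.43 in the 5 mice of prefix 8 and 0.25 in the 7 of prefix 9, and it stayed between 0.29 and 0.38 when each mouse was left out in turn. In sham mice Kcne1l was higher ipsilaterally in 2 of 5, with a mean difference of 0.04. The difference between injured and sham mice in this measure was 0.28 (SE 0.15) and was not called (limma p = 0.0684, exact permutation p = 0.0764), although it passed without PTE+ 9_17 (0.34) or without sham 9_11 (0.36).

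Kcnab3 was lower on the injured side in 10 of 12 mice, with PTE− 8_13 and 8_14 as the exceptions. Its mean exceeded 5 TPM only contralaterally, so it was tested through the side where it was higher. It was called at the 1 TPM limit too (limma p = 0.00712). The mean difference was −0.47 (SE 0.16) with limma p = 0.0087, adjusted p = 0.33 and exact permutation p = 0.00977, and −0.14 in prefix 8 against −0.70 in prefix 9. The call was lost in a fit that did not pair the sides of a mouse (limma p = 0.0693). In the same 12 mice the neuronal sum was higher ipsilaterally in 7, while the oligodendrocyte sum was lower in 8 and the endothelial sum in 9. The microglial sum was higher ipsilaterally in 10 of the 12. The part of these cells in the differences of Kcne1l and Kcnab3 was not tested.

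Kcnk1 was lower on the injured side in 10 of 12 mice, by −0.23 (SE 0.07) with limma p = 0.0044 and exact permutation p = 0.0107, and missed the 1.2-fold limit. It passed that limit without PTE+ 9_17 (−0.28). In sham mice the mean difference was −0.10, and the contrast between injured and sham mice was −0.13 (SE 0.13, exact permutation p = 0.346). The median over the 24 genes tested was 0.01, beside −0.01 over all genes. At the 1 TPM limit 51 genes were tested and 6 called, where 5.4% of 13428 genes were called. The 4 added were Kcns1 (0.85, SE 0.22), Kcnd3 (0.33, SE 0.10), Kcna3 (0.30, SE 0.13) and Kcnq1 (−0.40, SE 0.14), whose mean levels were 0.945 to 3.24 TPM. Kcnq1 exceeded 1 TPM on average only contralaterally, where it was higher.

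The hemisphere difference was then compared between the 12 injured and the 5 sham mice. Of 27 genes tested only Kcnab3 was called, beside 6.5% of 10695 genes. Ipsilateral injured libraries were the only group in which its mean was under 5 TPM. It was called at the 1 TPM limit and not without a limit (limma p = 0.0514). Its ipsilateral minus contralateral difference was −0.47 in injured and 0.23 in sham mice, a contrast of −0.69 (SE 0.32) with limma p = 0.0418, adjusted p = 0.709 and exact permutation p = 0.0583. The contrast was −1.09 in prefix 8 and −0.45 in prefix 9. It lost its call when any 1 of 8 mice was left out (PTE+ 8_10 and 9_18, PTE− 9_13 and 9_20, and sham 8_15, 8_16, 9_9 and 9_10), with values from −0.73 to −0.49, and at a pseudocount of 0.1 or without pairing the sides (limma p = 0.134). Between PTE+ and PTE− mice, 0 of 30 genes tested had a different hemisphere difference by limma, beside 3.09% of 10683 genes called, and 0 had an unadjusted p under 0.05. With 3 PTE+ mice the smallest exact permutation p is 0.00455. At the 1 TPM limit, 4 of 55 genes were called between injured and sham mice beside 6.99% of 13742 genes, with Kcns3 (−0.86, SE 0.28), Kcnk13 (−0.70, SE 0.25) and Kcnk5 (0.88, SE 0.41) added, and 1 of 55 between PTE+ and PTE− beside 3.41% of 13710 genes. Kcns3 exceeded 1 TPM on average only in ipsilateral sham. In sham 9_10 Kcnk5 was at 5.92 TPM contralaterally and 0.75 TPM ipsilaterally, and its contrast rests much on that mouse. Above 5 TPM the nearest to a call between PTE+ and PTE− was Kcnn3 at 0.47 (SE 0.23, limma p = 0.0563), which passed under quantile normalization (0.54) and median centring (0.51).

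**Figure D5:**
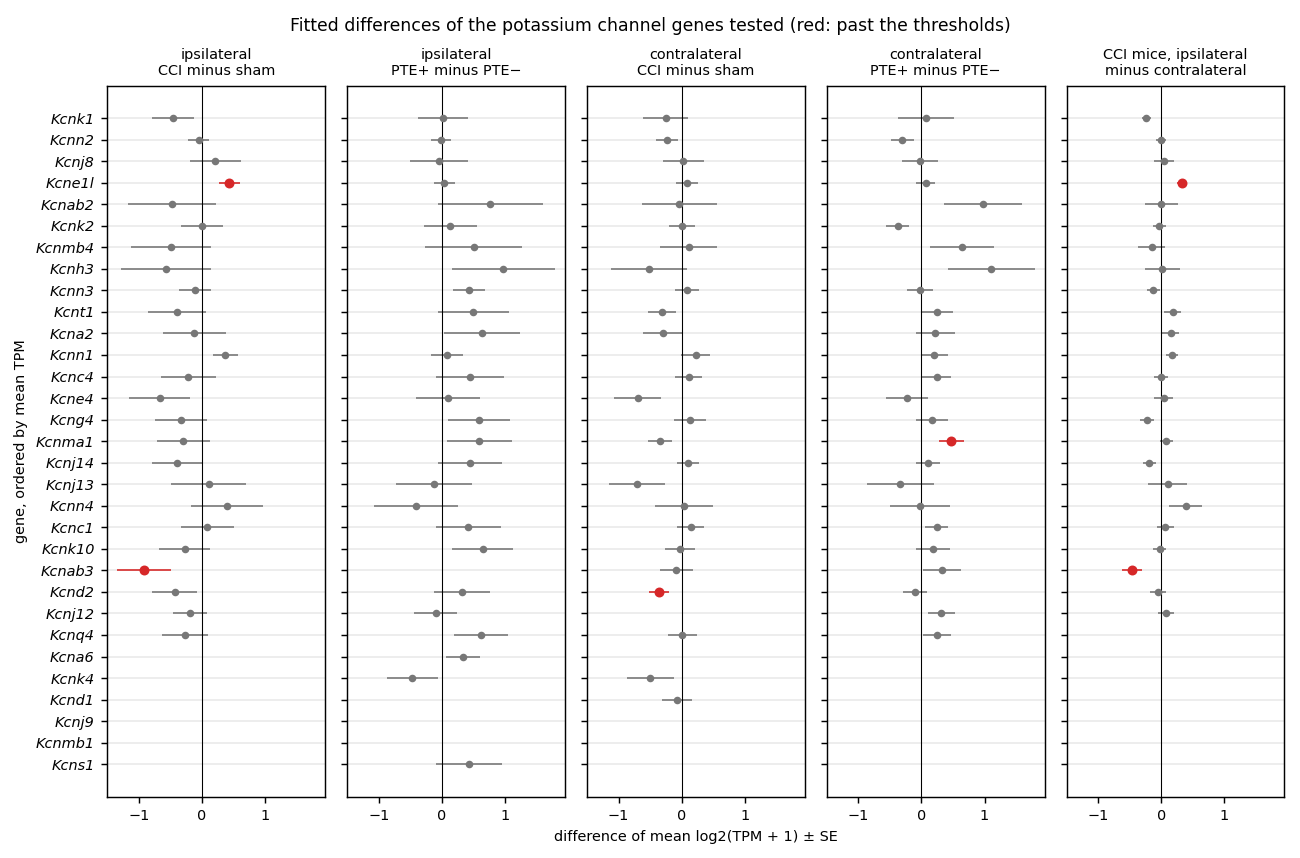
Fitted difference of mean log2(TPM + 1) with its SE (horizontal axis) for each potassium channel gene tested (vertical axis, by mean TPM), in the 4 comparisons between groups and in the comparison of both sides of injured mice, with called genes in red. No gene is red in the ipsilateral PTE+ against PTE− panel, and the intervals of Kcnh3, Kcnab2 and Kcnmb4 are the widest in several panels.

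The injured mice were then divided by epilepsy. Between PTE+ and PTE− astrocytes of the ipsilateral cortex, of 27 genes tested 0 were called by limma and 0 had an unadjusted p under 0.05, beside 0.573% of 10473 genes called. Without 9_14 the count was 0 of 28, beside 1.89% of 10440 genes. Kcnh3 differed by 0.97 (SE 0.81) and Kcnab2 by 0.77 (SE 0.83), both with a wide spread, and without 9_14 by 0.63 (SE 0.63) and 0.40 (SE 0.64). Of the abundant genes, Kcne1l differed by 0.04 (SE 0.16) and Kcnk1 by 0.02 (SE 0.40) between PTE+ and PTE−. The median difference was 0.42 over the 27 genes and 0.12 over all genes. Without 9_14 it was 0.13 over the potassium channel genes and 0.08 over all genes. At the 1 TPM limit, 1 of 53 genes was called, Kcna3 (0.77, SE 0.29), a voltage-gated channel with a mean of 1.57 TPM that is also known from lymphocytes and microglia, beside 0.661% of 13463 genes. Kcna3 was listed at 0 in 9_14, and its difference was 0.64 without that library (exact permutation p = 0.0154).

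In the contralateral cortex Kcnd2 was the 1 gene called of 26 tested between CCI and sham, beside 4.05% of 10556 genes. It was at 8.37, 5.10, 6.77, 6.48 and 8.23 TPM in sham 8_15, 8_16, 9_9, 9_10 and 9_11. In PTE− it ranged from 3.76 to 7.51 with a median of 5.05 TPM, and in PTE+ mice 8_10, 8_17, 9_17 and 9_18 it was at 5.0, 4.57, 5.26 and 4.70 TPM. The groups overlapped, and 11 of 13 injured libraries were below the sham median. The difference was −0.36 (SE 0.16), with limma p = 0.0351, adjusted p = 0.978 and exact permutation p = 0.0139 over 8568 splits, −0.31 in prefix 8 and −0.39 in prefix 9. It depended on the scaling. Quantile normalization gave −0.20 (limma p = 0.201) and median centring −0.26 (limma p = 0.101), and in this comparison 371 of the 428 genes called were lower, against 155 of 410 after centring. The call was also lost without sham 8_15, 9_9 or 9_11 or PTE− 8_9 or 9_20, with differences from −0.30 to −0.36. The median over the 26 genes was −0.03, beside −0.07 over all genes. At 1 TPM, 4 of 52 genes were called beside 4.41% of 13563 genes, with Kcnk5 (−0.68, SE 0.28), Kcnj2 (−0.53, SE 0.19) and Kcnk7 (0.53, SE 0.20) added at mean levels of 0.70 to 1.38 TPM. Each of those added exceeded 1 TPM on average only in the group where it was higher. Kcnk5 was at 5.92 TPM in sham 9_10, against 0.57 to 1.58 TPM in the other contralateral sham libraries. The same library enters the Kcnk5 hemisphere difference above, so these 2 calls are not separate evidence.

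Between contralateral PTE+ and PTE− libraries, 1 of 25 genes was called, beside 2.79% of 10423 genes. This was Kcnma1, the BK pore. It was at 10.4, 8.77, 11.7 and 10.9 TPM in PTE+ 8_10, 8_17, 9_17 and 9_18, and from 4.89 to 10.9 with a median of 7.24 TPM in the 9 PTE− libraries. All 4 PTE+ libraries were above the PTE− median, and 3 of them lay within the PTE− range. The difference was 0.47 (SE 0.20) with limma p = 0.0318, adjusted p = 0.999 and exact permutation p = 0.028 over 715 splits, of which the smallest possible is 0.0014. It was 0.35 in prefix 8 and 0.58 in prefix 9. Quantile normalization gave 0.37 (limma p = 0.0559), and leaving out PTE+ 8_10, 9_17 or 9_18 or PTE− 8_13 gave 0.41 to 0.47 with the call lost. Sham Kcnma1 in the same cortex was at 11.6, 8.31, 11.8, 9.66 and 11.8 TPM, and the CCI minus sham difference was −0.34 (SE 0.18, exact permutation p = 0.0682).

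Kcnmb4, the beta-4 partner of the BK pore, differed by 0.64 (SE 0.51) in that comparison, and Kcnh3 and Kcnab2, which like Kcnmb4 followed the neuronal sum, by 1.11 (SE 0.69) and 0.98 (SE 0.62). None was called. The neuronal sum was 142 to 647 TPM in PTE+ (median 334) and 42.7 to 607 TPM in PTE− (median 237). Kcnk2 was lower in PTE+ by −0.38 (SE 0.18), which missed the threshold at limma p = 0.0557 and passed it under quantile normalization (−0.46), median centring (−0.44), array weights (−0.39) and with the name prefix in the model (−0.36). The median over the 25 genes was 0.18, beside 0.05 over all genes. At 1 TPM, 2 of 51 genes were called beside 2.95% of 13422 genes, and the 1 added was Kcnk3 (0.54, SE 0.22), the acid-sensitive leak channel TASK-1.

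The direction of the calls over all genes depended on how libraries were scaled. As deposited, 129 genes were higher and 40 lower in the ipsilateral CCI comparison, against 201 and 117 after quantile normalization and 115 and 62 after median centring. For the ipsilateral PTE comparison the split was 34 and 26, against 45 and 90 and 14 and 36. Contralaterally it was 57 and 371 for CCI, against 203 and 156 and 255 and 155, and 203 and 88 for PTE, against 125 and 261 and 148 and 213. For the hemisphere differences it was 631 and 64 in CCI, against 248 and 236 and 224 and 382, and 111 and 219 in PTE, against 234 and 161 and 228 and 141. The median of all genes moved by over 0.1 in the ipsilateral PTE comparison, from 0.117 to 0.0112 with quantile normalization, in the contralateral CCI comparison, from −0.0710 to 0.0293 with median centring, and in the CCI hemisphere difference, from 0.0824 to −0.0368 with median centring. No potassium channel gene called as deposited turned its direction in the comparison that called it under these scalings.

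Proteins that bind these channels were read from a list of 16 genes, among them Kcnip1 to Kcnip4, Dpp6, Dpp10, Abcc8, Abcc9 and Amigo1. Between 7 and 8 of them were tested in each comparison. In the ipsilateral CCI against sham comparison 1 of 8 was called, Kcnip1, a calcium sensor that binds Kv4 channels such as Kcnd2, at 3.40 ± 1.70 TPM (SD, n = 14) after CCI and 6.71 ± 2.66 TPM (SD, n = 5) in sham. Only its sham mean passed the 5 TPM limit, so it entered the test through the group where it was higher. The difference was −0.88 (SE 0.37, limma p = 0.0269, adjusted p = 1.0, exact permutation p = 0.0288), and −0.73 without 9_14, where Kcnip1 was listed at 0 (limma p = 0.0147). The gene Kcnmb1 lies wholly inside Kcnip1 on the opposite strand (chromosome 11, 33963013 to 33973641), and the library kit does not mark strand, so their reads cannot be told apart where they overlap. In the PTE comparisons, the contralateral CCI comparison and the hemisphere differences, 0 listed partners were called by limma.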

How the data were processed

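Astrocytes had been isolated with ACSA-2 MicroBeads and sequenced after SMART-Seq v4 amplification. The authors trimmed reads with Trim Galore 0.6.4, mapped them to mm10 with Bowtie2 2.4.1, estimated expression with RSEM 1.2.28 and deposited TPM per Ensembl gene, 1 table per hemisphere. Their own tests used counts. TPM keep no counts, so depth is unknown and no count test or counting interval was possible.

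Symbols and positions came from GENCODE M21 (GRCm38, the same build as mm10), which matched 21856 of 21975 identifiers and left 119 without a symbol. The members and gene lists were chosen with earlier results of these data known. Genes named singly are the 15 members with the highest mean TPM, every member called in a comparison, Kcnj10 and Kcnj16 as a reference for levels, and called channel partners; others are named as outside this rule. Some results for single genes are not reported here.

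log2(TPM + 1) was compared with limma 3.58.1 (R 4.3.3, variance trend) over all genes whose mean exceeded 5 TPM in 1 or more groups, with Benjamini-Hochberg adjustment over all of them. A call was an unadjusted p under 0.05 and at least 1.2-fold. Differences understate the change of low genes. Fits were tested on simulated data. Comparisons of hemispheres paired the sides of a mouse by the mouse name in the labels: deviations from the group means of same-mouse libraries correlated over 10235 genes with a median of 0.412, above 0.1 in 16 of 17 mice. Exact permutation tests were two-sided over all splits of libraries or sign changes. Correlations used 100000 permutations. The labels do not say that libraries of a group came from separate preparations, only from separate mice. Alternatives were a pseudocount of 0.1, a limit of 1 TPM or none, quantile normalization, median centring, array weights, the name prefix, other groups in the fit, and leaving out each mouse. Other steps ran in Python 3.11.15 with scipy 1.17.1, pandas 2.3.3 and numpy 2.4.6, and plots in matplotlib 3.10.9.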

Additional observations from a re-analysis of the deposited data

Results flagged for a closer look

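Each of 18 named genes was examined in 6 groups for a highest or lowest library far from the rest on the log2(TPM + 1) scale by Dixon's criterion, which chance meets in about 1 in 20 groups. Of 108 gene and group pairs, 18 met it, and 9 of these were the ipsilateral PTE− 9_14 library. There Kcnj8 was at 310 TPM (others 25.3 to 62.9) and Kcnk2 at 2.15 TPM (others 12.6 to 23.3), and Kcnt1, Kcna2, Kcnc4, Kcne4, Kcng4, Kcnd2 and Kcnma1 were each listed at 0 TPM.

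Kcnk1 was low in PTE− mouse 9_20 on both sides, at 63.9 TPM ipsilaterally (others 216 to 525.7) and 78.3 TPM contralaterally (others 267 to 602). Kcnn2 was at 134 TPM in contralateral sham 9_9 (others 223 to 256), Kcnk2 at 8.17 TPM in contralateral sham 8_16 (others 18.6 to 24.9) and Kcnn1 at 6.35 TPM in ipsilateral sham 9_10 (others 9.30 or above). Kcnj8 was at 18.6 TPM in contralateral PTE− 9_15 (others 40.6 to 83.7). In PTE+ libraries, Kcne1l was at 38.7 TPM in ipsilateral 9_17 (others 59.4 to 61.2), Kcnmb4 at 26.0 TPM in ipsilateral 8_10 (others 11.2 to 12.9), and Kcnt1 at 10.7 TPM in contralateral 9_17 (others 11.2 to 11.3).

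The ipsilateral minus contralateral difference of Kcnab3 differed between injured and sham mice by −0.69 in log2(TPM + 1) (limma p = 0.0418, adjusted p = 0.709).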

How the results depend on the processing

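For the 18 named genes, 2804 of 2875 alternative values kept their side of the threshold and direction, 33 lost a call and 38 gained one. Adjusted p gave 0 calls in all 7 comparisons. Ipsilateral CCI against sham gave 1 call with a pseudocount of 0.1, and 5 at 1 TPM and without a filter. Over all genes, 153 of 10434 were called with that pseudocount and 379 of 19969 without a filter. Shares at 1 TPM stand with each comparison above. Ipsilateral PTE+ against PTE− gave 1 with either filter and 1 with array weights, beside 171 of 19775 genes without a filter and 441 of 10473 with array weights. Contralateral CCI against sham gave 4 with either filter and 0 with quantile normalization or median centring. The counts over all genes were 682 of 20077 without a filter, and 359 and 410 of 10556 with these scalings. Contralateral PTE+ against PTE− gave 2 at 1 TPM, 4 without a filter, and 2 with median centring, array weights or the prefix. All genes gave 458 of 19719 without a filter, and 361, 828 and 329 of 10423 in the other 3 settings. Both sides of injured mice gave 6 at 1 TPM, 7 without a filter and 3 with array weights, the last 2 beside 718 of 20291 and 541 of 10350 genes. The hemisphere difference in CCI against sham gave 0 with a pseudocount of 0.1, 4 at 1 TPM, 2 without a filter, 3 with quantile normalization, and 2 with median centring or array weights. All genes gave 701 of 10695, 1143 of 20583 without a filter, and 484, 606 and 749 of 10695. That in PTE+ against PTE− gave 1 at 1 TPM, 3 without a filter, and 1 with quantile normalization, median centring or the prefix. All genes gave 588 of 20291 without a filter, and 395, 369 and 328 of 10683. Leaving out each mouse gave 0 to 3 calls ipsilaterally for CCI and 0 for PTE, 0 to 3 and 0 to 3 contralaterally, 2 to 4 within injured mice, 0 to 2 for the hemisphere difference in CCI and 0 to 6 in PTE, the 6 without PTE+ 8_10 and 4 without PTE− 9_15. Over all genes calls ran from 138 to 415 and 23 to 197, then 231 to 883 and 201 to 489, in this order. They ran from 414 to 575 within injured mice, and 403 to 1094 and 137 to 882 for the hemisphere differences. For PTE this was 882 of 10879 genes without PTE+ 8_10 and 635 of 10682 without PTE− 9_15, beside 330 of 10683 in full. Without the replicate block, which pairs the sides of a mouse, the calls were 1 within injured mice, 0 for the hemisphere difference in CCI and 0 in PTE. All genes then gave 280 of 10350, 206 of 10695 and 80 of 10683. The ipsilateral correlation of Kcne4 with the mural sum went from −0.18 to 0.57 without 9_14. This alternative, and those for group means and genes under 5 TPM without 9_14, were chosen after seeing the data. The cause of these changes was not tested, beyond the number of genes or mice each leaves. TPM keep no depth, so counting error is part of the spread.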

Other observations

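Over 10235 genes with a mean above 5 TPM, the genes at least 1 log2 unit below every other mouse in both hemispheres (9_14 left out) were counted for each of the 17 mice, a count chosen after the Kcnk1 values were seen. There were between 0 and 3 per mouse, with 3 each in 8_10 and 9_12, and in 9_20 the 1 such gene was Kcnk1. The corresponding count of genes above every other mouse was 0 in 9_20. In sham mouse 9_11 the 1 gene above all others on both sides was Kcne4. For the remaining mice no potassium channel gene was among the genes apart.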
